A study of Penicillium oxalicum with 9 samples.

Results

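PDE_02505 and PDE_00175, both described as HSP20 family proteins, and PDE_01090, described as the Hsp70 nucleotide exchange factor Fes1, are 3 of the 9907 genes with transcript levels from mycelia of Penicillium oxalicum, a filamentous fungus. They were picked by identifier, with their values in these libraries already known. Their levels and the comparisons of strains are therefore given as a description, with no test. The libraries came from a strain lacking clrB, from a strain lacking rcoA and from the wild type 114-2, with 3 libraries of each. Conidia of all strains were first grown for 22 h at 30 °C with 2% glucose, and the mycelia were then kept for 24 h in a medium whose carbon was 1% wheat bran and 1% cellulose. ClrB activates the transcription of cellulase genes. RcoA belongs to the Tup1 family of corepressors, which silence genes when recruited by DNA-binding proteins. The sources used here do not give the parent or the number of clones of each deletion strain, nor whether the 3 libraries of a strain were separate cultures.

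Small heat shock proteins of the HSP20 family carry an alpha-crystallin domain and bind unfolding proteins without using ATP, which keeps them from forming large aggregates. Hsp70 refolds such proteins in cycles of ATP binding and hydrolysis. J-domain proteins deliver the clients and start hydrolysis, while nucleotide exchange factors such as Fes1 release ADP and thereby the client. Hsp100 disaggregases pull proteins out of aggregates together with Hsp70. In Saccharomyces cerevisiae, Fes1 serves cytosolic Hsp70, and many genes of this machinery are controlled by the heat shock factor Hsf1.

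Levels are FPKM as the authors computed them, a count of fragments divided by transcript length and by how many fragments the library yielded. The library protocol cuts short tags from a fixed kind of site, so scaling by length may not suit it, and levels of different genes are comparable only to that extent. A log2 change is the difference between strain means of log2(FPKM + 1), with its standard error (SE) from a limma fit over all tested genes. In the clrB deletion the deleted gene PDE_05999 read 0.08 to 0.11 FPKM, and a gene described as TUP1, PDE_01024, read 2.08 to 3.38 FPKM in the rcoA deletion, whose deleted locus the labels do not name. PDE_05999 was also 2.92-fold lower in the rcoA deletion, at 63.3 ± 6.12 FPKM against 185 ± 19.3 FPKM in the wild type (SD, n = 3 each). PDE_01024 stood at 67.3 ± 1.29 FPKM in the clrB deletion and 67.8 ± 2.64 FPKM in the wild type. Among clrB deletion libraries, replicate 2 was the least like the others, with correlations of 0.946 and 0.957 to replicates 1 and 3, which correlated at 0.991. RNA was taken from whole mycelia, in which a larger share of expressing cells and more RNA per cell cannot be told apart.

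Against the wild type, PDE_02505 had the widest change of the 3 genes. It read 1246, 1807 and 1385 FPKM in the clrB deletion, 2800, 4234 and 4431 FPKM in the rcoA deletion, and 40.3, 35.0 and 44.1 FPKM in the wild type. The 3 strains did not overlap, and their order was rcoA deletion, clrB deletion, wild type. Means were 1479 ± 292 FPKM in the clrB deletion, 3822 ± 891 FPKM in the rcoA deletion and 39.8 ± 4.56 FPKM in the wild type (SD, n = 3 each). Relative to the wild type, the mean was 37.2-fold in the clrB deletion (log2 change 5.17, SE 0.21) and 96.0-fold without RcoA (log2 change 6.53, SE 0.21). Even the lowest library of the clrB deletion lay 28.3-fold above the highest wild type library, and for the rcoA deletion this gap was 63.5-fold. Among the 9907 genes by FPKM it ranked between 44 and 59 without ClrB and between 13 and 27 without RcoA, but between 2974 and 3665 in the wild type.

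The second HSP20 gene, PDE_00175, was already abundant in the wild type and changed less against it. Its libraries read 871, 1145 and 854 FPKM in the clrB deletion, 2492, 4113 and 4592 FPKM in the rcoA deletion, and 328, 367 and 245 FPKM in the wild type. Again no libraries of different strains overlapped, although the lowest clrB deletion library was only 2.33-fold above the highest wild type library. Its mean was 957 ± 163 FPKM in the clrB deletion, 3733 ± 1100.3 FPKM in the rcoA deletion and 313 ± 62.1 FPKM in the wild type (SD, n = 3 each). That is 3.05-fold the wild type level in the clrB deletion (log2 change 1.61, SE 0.25) and 11.9-fold in the rcoA deletion (log2 change 3.54, SE 0.25). Among all genes it ranked between 71 and 99 in the clrB deletion, between 14 and 33 in the rcoA deletion and between 272 and 444 in the wild type.

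Fes1, PDE_01090, was the least abundant of the 3 genes in every library but changed more against the wild type than PDE_00175. It read 216, 368 and 247 FPKM in the clrB deletion, 596, 793 and 839 FPKM in the rcoA deletion, and 17.9, 15.8 and 17.5 FPKM in the wild type. Libraries of the deletions spread more, with coefficients of variation of 29.1% without ClrB and 17.4% without RcoA, against 6.77% in the wild type. Means were 277 ± 80.6 FPKM in the clrB deletion, 742 ± 129 FPKM in the rcoA deletion and 17.1 ± 1.16 FPKM in the wild type (SD, n = 3 each). The fold over the wild type was 16.2 in the clrB deletion (log2 change 3.91, SE 0.20) and 43.5 in the rcoA deletion (log2 change 5.35, SE 0.20). Besides the Fes1 description, which comes from a match to Aspergillus oryzae, the deposited ontology term for this gene is translation.

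**Figure D1:**
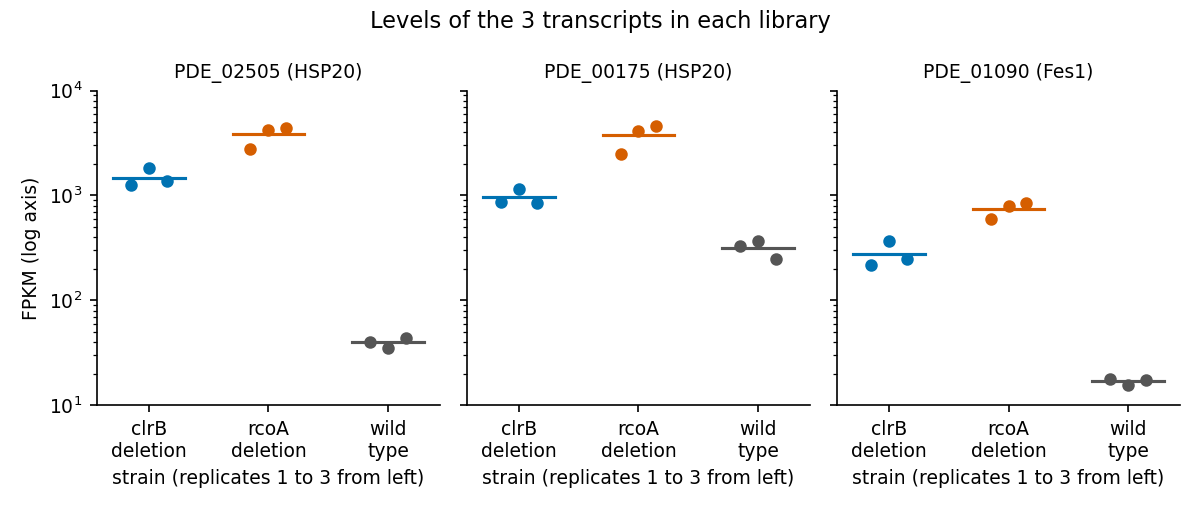
FPKM of PDE_02505, PDE_00175 and PDE_01090 in each library on a log axis, by strain, with points for replicates 1 to 3 and a line at the mean. In each panel the rcoA deletion is highest, the clrB deletion lies between and the wild type is lowest, with no overlap between strains.

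Non-overlap by itself was common in these data. Of the 9097 genes tested, those with a mean of at least 1 FPKM over the 9 libraries, 24.3% had every clrB deletion library above every wild type library, and 34.8% had every rcoA deletion library above every wild type library. Ranked from the highest log2 change down among these 9097 genes, so by increase only, PDE_02505 was 1st, PDE_01090 was 2nd and PDE_00175 was 73rd in the clrB deletion against the wild type. In the rcoA deletion against the wild type, PDE_02505 was 4th, PDE_01090 was 9th and PDE_00175 was 56th. Counting falls as well, other tested genes with as large a change numbered 11 for PDE_02505, 170 for PDE_00175 and 21 for PDE_01090 without ClrB, and 15, 207 and 48 without RcoA. Both comparisons share the wild type libraries, so they are not independent views of these genes.

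Between both deletions, the clrB deletion had the lower level of each gene. The log2 change of the clrB deletion against the rcoA deletion was -1.36 (SE 0.21) for PDE_02505, -1.93 (SE 0.25) for PDE_00175 and -1.44 (SE 0.20) for PDE_01090. As ratios of mean FPKM, the clrB deletion was 2.58-fold, 3.9-fold and 2.68-fold lower for these genes in the same order. Every clrB deletion library lay below every rcoA deletion library for all 3 genes, which was so for 27% of all tested genes. Changes at least as large as theirs, in either direction, were found in 15.7%, 8.68% and 14.4% of the tested genes.

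The order of the 3 genes by FPKM within a library differed between strains. Which gene is the higher in a library rests on the scaling by length, which may not suit these tags. In the clrB deletion the ratio of PDE_02505 to PDE_00175 was 1.43, 1.58 and 1.62, with PDE_02505 the higher in every library. In the rcoA deletion it was 1.12, 1.03 and 0.965, and the ranges of both genes overlapped, so neither could be placed above the other. In the wild type it was 0.123, 0.0953 and 0.180, with PDE_00175 far above PDE_02505. PDE_01090 lay below both HSP20 genes in all 9 libraries.

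PDE_02505 and Fes1 stood in a similar proportion in both deletion strains. The ratio of PDE_02505 to PDE_01090 was 5.77, 4.90 and 5.61 in the clrB deletion and 4.70, 5.34 and 5.28 in the rcoA deletion, with overlapping ranges. In the wild type it was 2.25, 2.22 and 2.51, below every deletion library. The ratio of PDE_00175 to PDE_01090 ran the other way, at 4.03, 3.11 and 3.46 in the clrB deletion and 4.18, 5.19 and 5.47 in the rcoA deletion, against 18.3, 23.3 and 14.0 in the wild type. A scaling by library cancels in these ratios, and their changes between strains do not depend on it.

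**Figure D2:**
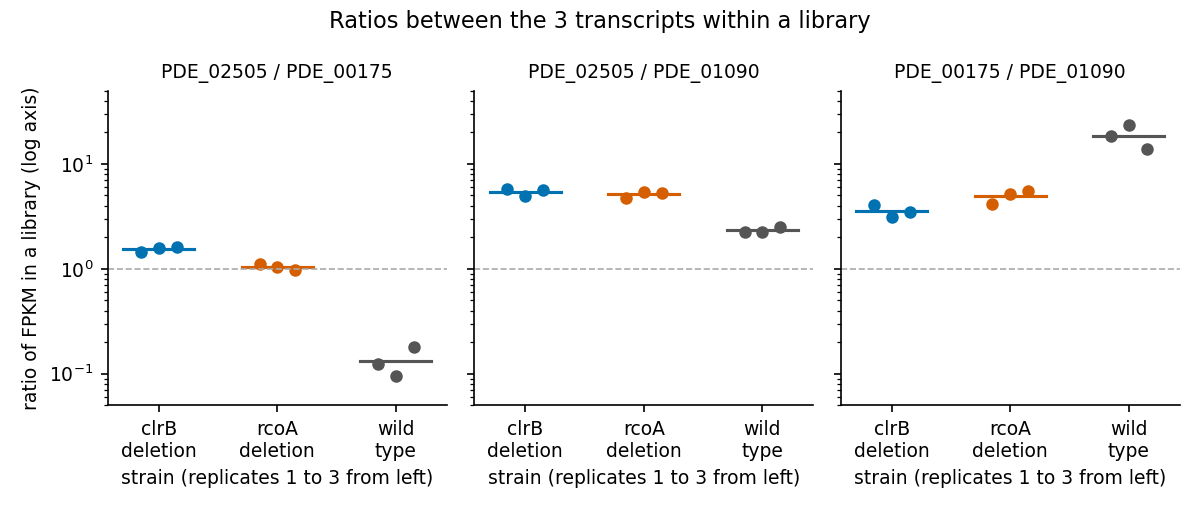
Ratios of FPKM between pairs of the 3 genes within each library on a log axis, by strain, with points for replicates 1 to 3, a line at the mean and a dashed line at 1. PDE_02505 over PDE_01090 spans 4.70 to 5.77 in both deletions and 2.22 to 2.51 in the wild type, while PDE_02505 over PDE_00175 is 0.965 to 1.62 in the deletions and 0.0953 to 0.180 in the wild type.

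Within each deletion strain the 3 genes had the same highest library. In the clrB deletion, replicate 2 was the highest library for all 3 genes, at 1807, 1145 and 368 FPKM for PDE_02505, PDE_00175 and PDE_01090. This is the replicate that stood apart. Among all tested genes it was the highest of the 3 clrB deletion libraries in 35.4% and the lowest in 48.7%. For the 74 other tested genes of the chaperone network described below it was the highest in 16 and the lowest in 42. Without it, the clrB deletion means were 33.1-fold, 2.75-fold and 13.6-fold those of the wild type. The lowest clrB deletion library was replicate 1 for PDE_02505 and PDE_01090 and replicate 3 for PDE_00175. In the rcoA deletion, replicate 3 was the highest and replicate 1 the lowest for all 3 genes. That order was frequent elsewhere too. Replicate 3 was the highest in 46 of the 74 chaperone genes and in 49.3% of all tested genes. Replicate 1 was the lowest in 50 of the 74 chaperone genes and in 48.8% of all tested genes. No common order was seen in the wild type, where each of the 3 libraries was the highest for 1 of the genes.

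Of the HSP20 genes not described so far, 0 were called without ClrB, and 1 of 3 rose without RcoA, beside 30.4% of all tested genes higher and 34.1% lower. The deposited descriptions named 5 genes as HSP20 family proteins, and the 3 others were tested with limma on all genes, calling a gene at a Benjamini-Hochberg adjusted p under 0.05. In the clrB deletion 0 of the 3 were called, and 0 had an unadjusted p under 0.05, where 13.5% of all tested genes were called higher and 8.32% lower. PDE_02095 was the most abundant HSP20 gene in the wild type and read 1192, 1457 and 803 FPKM in the clrB deletion, 1407, 2030 and 2089 FPKM in the rcoA deletion, and 1606, 1208 and 1031 FPKM in the wild type. Its strains overlapped, and its log2 change was -0.17 (SE 0.26, adjusted p = 0.671) without ClrB and 0.53 (SE 0.26, adjusted p = 0.109) without RcoA. Between both deletions it was lower in the clrB deletion (log2 change -0.70, adjusted p = 0.0457). Of 19 alternatives, 10 lost this call, among them leaving out clrB deletion replicate 1 or 3, rcoA deletion replicate 2 or 3, or wild type replicate 2 or 3.

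PDE_00322 rose in the rcoA deletion and was not called in the clrB deletion. It read 60.5, 107 and 53.0 FPKM in the clrB deletion, 412, 346 and 219 FPKM in the rcoA deletion, and 73.0, 53.9 and 46.5 FPKM in the wild type. Its mean was 5.63-fold that of the wild type in the rcoA deletion (log2 change 2.45, SE 0.31, adjusted p = 0.000115), and its log2 change in the clrB deletion was 0.30 (SE 0.31, adjusted p = 0.514). The clrB deletion lay below the rcoA deletion (log2 change -2.15, SE 0.31, adjusted p = 0.000304). PDE_09235, also described as an annexin, stayed at or below 5.54 FPKM in every library and was called in neither deletion against the wild type (adjusted p = 0.941 and 0.0519 for clrB and rcoA). Its libraries read 0.09, 0.27 and 0.36 FPKM in the rcoA deletion against 0.99, 3.31 and 1.61 FPKM in the wild type, and it was called lower under 6 of 18 alternatives, among them leaving out clrB deletion replicate 2 or 3 or wild type replicate 1. Between both deletions it was higher in the clrB deletion (log2 change 1.25, adjusted p = 0.0465), and 12 of 18 alternatives lost that call, among them every single library left out except clrB deletion replicate 3 and wild type replicate 2. Fragments of related HSP20 genes may have been shared in the authors' counting, whose method the sources used here do not describe.

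Fes1 was set beside the other Hsp70 exchange factors. GrpE (PDE_08711), which serves the bacterial and mitochondrial type of Hsp70, read 54.6, 58.6 and 57.6 FPKM in the clrB deletion, 177, 212 and 219 FPKM in the rcoA deletion, and 17.3, 24.1 and 23.7 FPKM in the wild type. No strains overlapped, and GrpE rose 2.62-fold without ClrB (log2 change 1.37, SE 0.14, adjusted p = 0.000385) and 9.34-fold without RcoA (log2 change 3.17, SE 0.14, adjusted p = 2.07e-07). Of the 2 genes described as hypoxia up-regulated 1, the name of an Hsp70 relative of the endoplasmic reticulum (ER), PDE_00066 fell 1.78-fold without RcoA, to 9.71 ± 1.84 FPKM against 17.2 ± 3.03 FPKM in the wild type (adjusted p = 0.00216). It was not called without ClrB (22.2 ± 1.89 FPKM, adjusted p = 0.13). PDE_00412 was called in neither, at 22.6 ± 2.13 FPKM in the clrB deletion, 19.0 ± 1.13 FPKM in the rcoA deletion and 20.1 ± 1.57 FPKM in the wild type. A further gene outside the naming rule, chosen after its values were seen, is PDE_00703, described as the 70 kDa heat shock protein 4, whose human namesake acts as an exchange factor. It had 58.0 ± 2.17 FPKM in the clrB deletion, 156 ± 18.6 FPKM in the rcoA deletion and 38.0 ± 3.22 FPKM in the wild type, and it was called higher in both deletions.

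Across the chaperone network as a whole, changes were frequent in the rcoA deletion and small in the clrB deletion. Word patterns in the descriptions gave 75 genes besides the 3 of interest, of which 74 were tested. They cover small heat shock proteins, exchange factors, J-domain proteins, Hsp70, Hsp90, Hsp100, chaperonins with prefoldin, and ER folding enzymes. Without ClrB, 23 of the 74 were called higher and 4 lower, which is 31.1% and 5.41%, beside 13.5% and 8.32% of all tested genes. Of the 74, 2 were called higher with at least a 2-fold change on the log2(FPKM + 1) scale, GrpE and the Hsp100 gene PDE_00624, beside 2.25% of all tested genes. The median log2 change of the 74 was 0.21, against 0.08 for all tested genes. These counts depended on single libraries. Leaving out a clrB deletion library gave 15 higher and 2 lower (replicate 1), 33 and 5 (replicate 2) or 10 and 2 (replicate 3). Leaving out a wild type library gave 14 and 1 (replicate 1), 15 and 2 (replicate 2) or 16 and 2 (replicate 3), and 2 were lower when rcoA deletion replicate 2 was left out.

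Without RcoA, 45 of the 74 were called higher and 12 lower, which is 60.8% and 16.2%, beside 30.4% and 34.1% of all tested genes. Of the 74, 24 were called higher with at least a 2-fold change, beside 12.1% of all tested genes. The median log2 change was 0.53, against -0.04 for all tested genes. When the clrB deletion was set against the rcoA deletion, 14 of the 74 were higher and 38 lower, beside 35.2% and 24.9% of all tested genes. The 14 became 9 without rcoA deletion replicate 2. Scaling the libraries to equal medians, by trimmed means or by quantiles changed the chaperone counts by 6 at most in either direction. It moved the share of higher calls among all genes in the clrB deletion against the wild type from 61.9% to between 48.4% and 50.2%, and in the clrB deletion against the rcoA deletion from 58.6% to between 45.7% and 50%. The same scalings kept the direction of each change given for PDE_02505, PDE_00175 and PDE_01090.

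Both Hsp100 genes, described as ClpB, the bacterial relative of the yeast disaggregase Hsp104, rose in both deletions. PDE_00624 read 42.5, 54.3 and 59.1 FPKM in the clrB deletion, 648, 830 and 822 FPKM in the rcoA deletion, and 13.7, 16.1 and 17.1 FPKM in the wild type. It was 3.32-fold above the wild type without ClrB (log2 change 1.66, SE 0.15, adjusted p = 0.000229) and 49.0-fold above it without RcoA (log2 change 5.52, SE 0.15, adjusted p = 2.39e-08). PDE_00424 rose 1.51-fold without ClrB, to 73.6 ± 9.0 FPKM against 48.6 ± 1.21 FPKM in the wild type (adjusted p = 0.0107), and that call was lost without clrB deletion replicate 3. It rose 18.4-fold without RcoA, to 894 ± 93.6 FPKM (adjusted p = 2.41e-08). Among the 74 chaperone genes, PDE_00624 alone had as large a log2 change as PDE_00175 in the clrB deletion and as large a one as Fes1 in the rcoA deletion. None of the 74 reached the change of PDE_02505 in either deletion, or that of Fes1 in the clrB deletion.

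In the Hsp70 list, 4 of 8 genes rose and 0 fell without ClrB, and 7 rose and 1 fell without RcoA. Of all tested genes, 13.5% rose and 8.32% fell without ClrB, and 30.4% rose and 34.1% fell without RcoA. The 4 became 3 when clrB deletion replicate 1 or 3 or wild type replicate 2 or 3 was left out. They became 6 without clrB deletion replicate 2. Outside the naming rule and chosen after its values were seen, PDE_05413, described as the ER type, rose 1.79-fold without ClrB and 2.66-fold without RcoA. PDE_07370, of the DnaK type and chosen likewise, fell without RcoA, to 14.1 ± 1.79 FPKM against 22.7 ± 2.26 FPKM in the wild type. The most abundant of these, the cytosolic type gene PDE_02379, read 380, 341 and 362 FPKM in the clrB deletion, 2113, 2408 and 2226 FPKM in the rcoA deletion, and 280, 263 and 245 FPKM in the wild type. It rose 8.56-fold without RcoA (log2 change 3.09, SE 0.11, adjusted p = 6.66e-08) and 1.37-fold without ClrB (log2 change 0.46, SE 0.11, adjusted p = 0.0196), and the call without ClrB was lost under 4 of 19 alternatives. PDE_03760, of the bacterial and mitochondrial DnaK type, rose 1.64-fold without ClrB, to 88.5 ± 14.2 FPKM, and 6.31-fold without RcoA, to 340 ± 19.0 FPKM, against 53.8 ± 2.93 FPKM in the wild type. PDE_00987, again of the cytosolic type, rose 3.4-fold without RcoA and was not called without ClrB, where its libraries spread over 194, 86.5 and 160 FPKM (adjusted p = 0.094). PDE_08980, described as the ER type, rose 3.36-fold without RcoA and stood at 85.2 ± 6.46 FPKM in the clrB deletion against 76.2 ± 9.90 FPKM in the wild type (adjusted p = 0.512).

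J-domain proteins, the partners that load Hsp70, had 10 of 31 tested genes higher and 3 lower without ClrB, and 15 higher and 7 lower without RcoA. The shares over all tested genes were 13.5% higher and 8.32% lower without ClrB, and 30.4% and 34.1% without RcoA. The 10 and 3 became 4 and 1 when clrB deletion replicate 3 was left out, 6 and 0 when wild type replicate 1 was left out, and 1 was lower without clrB deletion replicate 1, rcoA deletion replicate 2, or wild type replicate 2 or 3. The 3 that were lower, PDE_04788, PDE_01186 and PDE_04502, were chosen after their values were seen and fell by 0.43, 0.28 and 0.28 on the log2 scale, calls lost under 1, 12 and 8 of 19 alternatives. PDE_09312, described as DnaJ subfamily B member 4, read 91.9, 108 and 89.1 FPKM in the clrB deletion, 414, 491 and 478 FPKM in the rcoA deletion, and 57.8, 59.2 and 68.2 FPKM in the wild type. It rose 1.56-fold without ClrB (adjusted p = 0.00785) and 7.46-fold without RcoA (adjusted p = 1.40e-07). PDE_02975, described as DnaJ subfamily A member 2, rose 1.59-fold and 4.83-fold in the clrB and rcoA deletions, and PDE_01365, described as subfamily C member 2, rose 1.81-fold and 3.14-fold. The call of PDE_01365 in the clrB deletion was lost under 4 of 19 alternatives. PDE_02524 rose 2.72-fold without RcoA and carries further descriptions, among them phosphomannomutase. Several descriptions are attached to 16 of the 75 chaperone genes in all, and some of these may not be chaperones. Without genes of several descriptions, the network had 21 members higher and 2 lower of 59 in the clrB deletion, and 38 and 7 in the rcoA deletion.

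Hsp90, which matures signalling proteins, and its cochaperones were represented by 2 tested genes. PDE_09149 is described under the bacterial name of Hsp90, HtpG. It read 263, 227 and 247 FPKM in the clrB deletion, 1331, 1536 and 1527 FPKM in the rcoA deletion, and 199, 187 and 186 FPKM in the wild type. The gene rose 7.68-fold without RcoA (log2 change 2.93, SE 0.11, adjusted p = 7.94e-08). The rise without ClrB was 1.29-fold (adjusted p = 0.0403). Its call was lost under 10 of 19 alternatives, while the log2 change stayed between 0.29 and 0.42. The other tested gene of the list, PDE_05921, is described as stress-induced phosphoprotein 1, which links Hsp70 to Hsp90, and was chosen after its values were seen. It read 165, 144 and 144 FPKM in the clrB deletion, 309, 356 and 355 FPKM in the rcoA deletion, and 235, 179 and 172 FPKM in the wild type. It rose without RcoA (adjusted p = 0.000692), and without ClrB every library lay below the wild type with no call (log2 change -0.36, adjusted p = 0.0871). Among chaperonins and prefoldin, some of which fold newly made proteins such as actin and tubulin, 4 of 18 genes were higher and 0 lower without ClrB. Without RcoA, 15 of the 18 were higher and 1 lower. The all-gene shares were 13.5% higher and 8.32% lower without ClrB, and 30.4% and 34.1% without RcoA. The 4 became 12 when clrB deletion replicate 2 was left out, 0 without clrB deletion replicate 1 or 3 or any 1 of the wild type libraries, and 1 without any 1 of the rcoA deletion libraries. The 4 are subunits of the cytosolic chaperonin TCP-1 (PDE_04469, PDE_07735, PDE_02675 and PDE_08897). The gene that fell without RcoA, PDE_04480, has the same description as PDE_04469, subunit beta, which rose without RcoA. These 5 were chosen after their values were seen. GroEL (PDE_04315) rose 5.56-fold without RcoA, to 404 ± 53.8 FPKM against 72.7 ± 6.53 FPKM in the wild type, and stood at 102 ± 18.4 FPKM without ClrB (adjusted p = 0.0551). Its partner GroES (PDE_08020) rose 2.72-fold and the prefoldin relative PDE_05511 rose 3.47-fold without RcoA, and neither was called without ClrB.

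The ER folding enzymes had 1 of 7 genes higher and 1 lower without ClrB, and 2 higher and 2 lower without RcoA, with 1 lower when rcoA deletion replicate 3 or wild type replicate 1 was left out. These counts stand beside 13.5% higher and 8.32% lower of all tested genes without ClrB, and 30.4% and 34.1% without RcoA. PDE_02993, a disulfide isomerase chosen after its values were seen, fell in both deletions, to 64.4 FPKM without ClrB and 84.6 ± 5.38 FPKM without RcoA against 119.5 ± 20.5 FPKM in the wild type. The most abundant, the disulfide isomerase PDE_06215, fell 1.67-fold without RcoA, to 209 ± 24.3 FPKM against 350.1 ± 42.3 FPKM in the wild type (adjusted p = 0.00226). Its level in the clrB deletion, 270.2 ± 45.8 FPKM, was not called (adjusted p = 0.103). The genes that rose without RcoA were PDE_08820, which rose 6.35-fold, and PDE_02079, at 15.3 ± 5.22 FPKM against 0.787 ± 0.170 FPKM in the wild type. Both are also described as NADPH dehydrogenases, flavin enzymes that do not fold proteins.

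**Figure D3:**
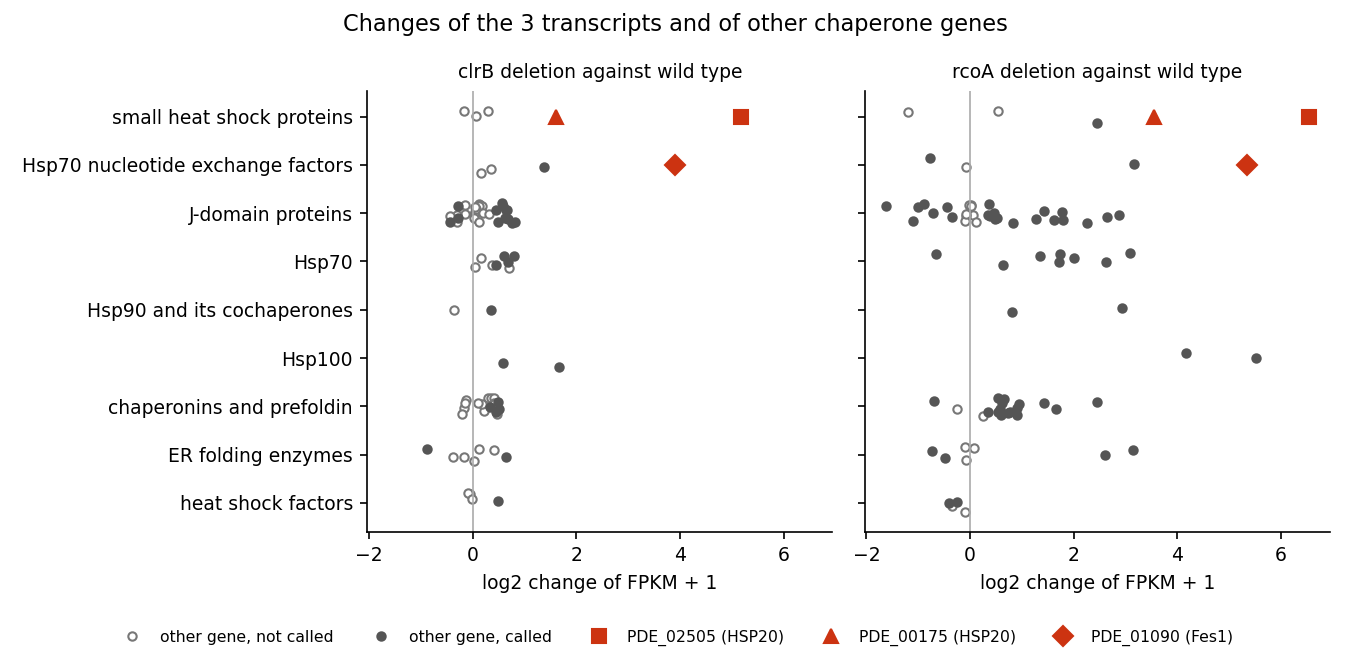
Log2 change of FPKM + 1 in the clrB deletion (left) and the rcoA deletion (right) against the wild type, by chaperone family, with filled points for other genes called at adjusted p under 0.05, open points for those not called, and red symbols for the 3 genes described here. In the left panel PDE_02505 at 5.17 and PDE_01090 at 3.91 lie beyond all other chaperone genes plotted, whereas in the right panel Hsp100 genes reach 4.17 and 5.52.

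Transcripts of the heat shock regulators changed by 1.41-fold at most in either deletion. PDE_05764, described as a heat shock transcription factor, read 42.9, 42.4 and 45.6 FPKM in the clrB deletion, 24.7, 26.2 and 26.5 FPKM in the rcoA deletion, and 29.1, 33.4 and 30.1 FPKM in the wild type. The strains did not overlap, and the gene rose 1.41-fold without ClrB (log2 change 0.49, SE 0.08, adjusted p = 0.00614). Without RcoA it fell 1.2-fold (log2 change -0.25, SE 0.08, adjusted p = 0.0277). That call was lost under 6 of 19 alternatives, among them leaving out rcoA deletion replicate 1 or 2 or wild type replicate 2 or 3. PDE_09961, under the same description, was called in neither deletion, at 19.1 ± 0.613 FPKM in the clrB deletion, 18.2 ± 1.40 FPKM in the rcoA deletion and 19.4 ± 0.955 FPKM in the wild type. The response regulator Skn7 (PDE_08232), which carries a DNA-binding domain like that of heat shock factors, fell 1.35-fold without RcoA (adjusted p = 0.00125) and was not called without ClrB (adjusted p = 0.439). A heat shock factor-binding protein (PDE_07465) was called in neither. In all, 1 of these 4 genes was higher and 0 lower without ClrB, and 0 were higher and 2 lower without RcoA, with the same numbers at an unadjusted p under 0.05. All tested genes gave 13.5% higher and 8.32% lower without ClrB, and 30.4% and 34.1% without RcoA.

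Genes with a profile most like each of the 3 were sought among the tested genes by the root mean square difference, over the 9 libraries, of log2(FPKM + 1) centred per gene. For PDE_02505 the nearest gene was Fes1 at 0.58 log2 units, where the median over all tested genes was 2.83, and for Fes1 the nearest was PDE_02505. The distance depends on the size of the changes. Both genes, picked with their values known, had some of the largest rises in both deletions. PDE_00175 was 16th in the order for PDE_02505 and 12th in that for Fes1. This distance is the same from either side, but the order for PDE_00175 placed both genes further down. Among 9096 genes Fes1 was 689th there, at 1.01 log2 units, and PDE_02505 was 5283rd, at 1.58 log2 units, beyond the median of 1.51. The next 2 genes for both were PDE_05715, described as a zinc transporter (1.13 and 0.60 log2 units from PDE_02505 and Fes1), and the gluconeogenic enzyme fructose-1,6-bisphosphatase (PDE_08481, 1.23 and 0.68). PDE_05715 had 223 ± 57.1 FPKM in the clrB deletion, 1059 ± 165 FPKM in the rcoA deletion and 38.9 ± 5.33 FPKM in the wild type. PDE_08481 had 97.6 ± 9.81, 342 ± 12.2 and 17.7 ± 4.27 FPKM in the clrB deletion, the rcoA deletion and the wild type. PDE_08708, which has no description, was 5th for PDE_02505 and 4th for Fes1.

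The mitochondrial alternative oxidase PDE_08849, which lets electrons bypass part of the respiratory chain, was 4th for PDE_02505 at 1.23 log2 units. It had 54.1 ± 17.2 FPKM in the clrB deletion, 1003 ± 304 FPKM in the rcoA deletion and 5.46 ± 2.13 FPKM in the wild type. The 5th gene for Fes1 was PDE_09658, described as a RING finger protein, at 0.76 log2 units. PDE_00175 had closer neighbours, at 0.24 to 0.31 log2 units, beside a median of 1.51 over all tested genes. These were PDE_01344 and PDE_00227, which have no description, PDE_07902, described as a zinc finger protein, PDE_01752, described as uncharacterized, and the exchange factor GrpE described above. PDE_07902 read 151, 162 and 171 FPKM in the clrB deletion, 573, 805 and 950 FPKM in the rcoA deletion, and 47.5, 46.5 and 46.0 FPKM in the wild type. Without clrB deletion replicate 2, 4 of the 5 nearest genes stayed among the 5 for PDE_02505, 4 for Fes1 and 3 for PDE_00175.

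**Figure D4:**
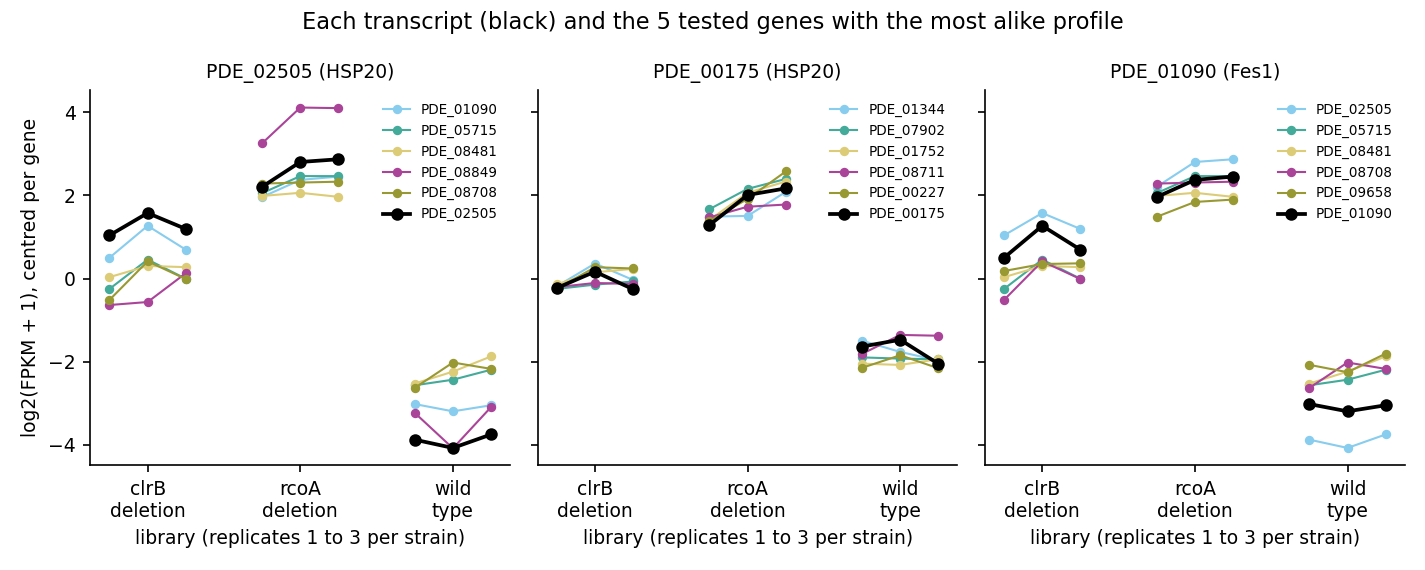
Log2(FPKM + 1), centred per gene, in the 9 libraries for PDE_02505, PDE_00175 and PDE_01090 (black) and the 5 tested genes most alike to each (colours), with lines joining libraries of a strain. Profiles around PDE_00175 lie within 0.24 to 0.31 log2 units of it, while only PDE_01090 comes within 0.58 of PDE_02505.

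Markers of conidia and conidiophores, the spore-bearing structures a mycelial culture may hold, were listed beside these values. Their summed level over 5 genes was 325 to 725 FPKM in the clrB deletion, 257 to 335 FPKM in the rcoA deletion and 168 to 299 FPKM in the wild type. Most of the sum in every library came from PDE_03008. That gene read 370, 242 and 356 FPKM in the clrB deletion, 321, 252 and 243 FPKM in the rcoA deletion, and 109, 207 and 220 FPKM in the wild type. In the clrB deletion 2 of the 4 tested markers were higher, namely BrlA (PDE_00087), the activator of conidiation, and FlbD (PDE_03008), a regulator upstream of it, where 13.5% of all tested genes were higher. BrlA read 149, 33.4 and 121 FPKM there, 13.0, 12.4 and 13.7 FPKM in the rcoA deletion, and 18.2, 27.9 and 28.5 FPKM in the wild type (adjusted p = 0.0294 for the clrB deletion, lost under 6 of 19 alternatives). The rise of FlbD was 1.8-fold (adjusted p = 0.0485, lost under 14 of 19 alternatives). The count of 2 became 3 without clrB deletion replicate 2. It became 0 without clrB deletion replicate 1 or 3 or wild type replicate 1 or 2. Without wild type replicate 3 or any 1 of the rcoA deletion libraries it was 1. Replicate 2 of the clrB deletion was the lowest for BrlA and the highest for PDE_02505, PDE_00175 and PDE_01090. In the rcoA deletion, where these 3 genes were highest, both scytalone dehydratase genes of pigment synthesis were at or near 0, PDE_04496 at 0.45 to 0.54 FPKM and PDE_09236 listed at 0 in every library, and 0 of the 4 tested markers were called higher, beside 30.4% of all tested genes. That count became 1 without clrB deletion replicate 2 or wild type replicate 3, and FlbD stood 1.52-fold above the wild type there, with every library above it (adjusted p = 0.0611). The second gene described as BrlA, PDE_00079, had at most 1.57 FPKM in any library and was not tested. PDE_09236 and PDE_00079 fall outside the naming rule and were chosen after their values were seen. The part of conidiation in the changes of the 3 genes was not tested.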

How the data were processed

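RNA was selected on oligo(dT), and tags were cut with NlaIII and MmeI, per the labels' protocols. The deposited table gave FPKM computed by the authors for 9907 genes; how reads were aligned and counted, and on which build, is not given in the sources used here. Columns of 3 further libraries were not used. Gene descriptions are those in the deposited table. Looked up among 9964 RefSeq genes (assembly ASM172317v3), 0 identifiers matched, so no coordinates or sequences are given.

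FPKM summed to between 776855 and 820648 per library. Ratios of low values (0.15 to 1.5 FPKM) to wild type replicate 1 piled up at 1 in all 8 other libraries, but depth itself is unknown, so no counting interval is given.

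The 9097 genes averaging 1 FPKM or more were fitted as log2(FPKM + 1) by limma (version 3.58.1, under R 4.3.3), as 3 strain means over 9 libraries and with an intensity trend. Tests were two-sided, with Benjamini-Hochberg adjustment over all tested genes and calls at 0.05. This scale understates changes of low genes, and folds are ratios of mean FPKM. P-values rest on the variation among 3 libraries a strain, which may be technical only. The fit was tested on simulated data with independent noise, whose spread came from the wild type and rcoA deletion libraries alone. A clrB deletion library that stands apart was not simulated.

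The 3 genes and the gene lists were chosen with earlier results of these data known. Besides the 3 genes, named were all members of the lists of small heat shock proteins, exchange factors, Hsp100 and heat shock factors. For each other list the most abundant member was named, with up to 4 members called with at least a 2-fold change and 10 FPKM, and for each of the 3 genes the 5 most alike. A list of the Hsp9/Hsp12 family matched 0 genes. Alternatives were other pseudocounts, scalings, filters, fits without trend, of 2 strains alone or with a replicate block, and leaving out each library.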

Additional observations from a re-analysis of the deposited data

How the results depend on the processing

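The log2 changes of PDE_02505, PDE_00175 and PDE_01090 kept their direction in all 3 comparisons under each of 15 alternatives. They moved by less than the spread between replicates, except that a pseudocount of 5 gave 5.07 for PDE_01090 in the rcoA deletion against the wild type, since this scale compresses low wild type values. Against the wild type, leaving out a library gave 5.02 to 5.28 for PDE_02505 in the clrB deletion and 6.41 to 6.74 in the rcoA deletion. For PDE_00175 it gave 1.45 to 1.74 and 3.37 to 3.81 in these deletions, and for PDE_01090 3.68 to 4.07 and 5.25 to 5.50.

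Genes called in the clrB deletion against the wild type numbered 1987, became 1274 in a fit of those strains alone and ranged from 724 to 3409 when a library was left out. Without clrB deletion replicate 2 there were 3409 and without its replicate 3 there were 724, and without wild type replicates 1, 2 and 3 in turn 873, 1075 and 1283. The 27 chaperone genes called there ranged from 12 to 38 when a library was left out. In the rcoA deletion against the wild type the 57 chaperone genes called ranged from 53 to 59 over the alternatives that kept all 74 genes. Without genes of several descriptions, which left a list of 59 genes, 45 were called. The alternative without genes of several descriptions was chosen after the data were seen. Of the chaperone and marker genes that the naming rule gave and that were called, 7 of 13 kept the call under all alternatives in the clrB deletion and 22 of 23 in the rcoA deletion. Of those named outside it, 3 of 10 and 13 of 14 did.

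Replicate numbers of the labels showed no clear pairing of the libraries. Deviations from the strain means correlated between -0.161 and 0.341 for equal numbers and between -0.374 and 0.23 for unequal numbers. Not every library correlated best with its own number. Deviations of 3 libraries from their own mean are tied to each other, so these values cannot decide whether the libraries were paired. With a replicate block, 1725 and 5803 genes were called in the clrB and rcoA deletions against the wild type and 5380 between both deletions, and 22, 58 and 52 chaperone genes. The unknown depth limits statements on genes near 1 FPKM, such as PDE_09235 and PDE_00079.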
